A study of Homo sapiens with 17 samples.

Results

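The B cell receptor kinases and adaptors examined here were 9 genes of the 63677 in the deposited count files. They were chosen by name and matched by Ensembl identifier: SYK (ENSG00000165025), LYN (ENSG00000254087), BLK (ENSG00000136573), BTK (ENSG00000010671), BLNK (ENSG00000095585), PTPN6 (ENSG00000111679), PLCG2 (ENSG00000197943), PIK3CD (ENSG00000171608) and PRKCB (ENSG00000166501). Their RNA was measured by RNA-seq in 15 libraries of Karpas-422 and WSU-DLCL2, established human lines of diffuse large B cell lymphoma. The study concerns how histone acetylation bears on chromatin folding and oncogenes. It treated cells with A-485, an inhibitor of the acetyltransferase activity of p300 and CBP.

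Each of the 5 groups had 3 libraries: untreated Karpas-422, Karpas-422 after 48 h of A-485, untreated WSU-DLCL2, WSU-DLCL2 after 48 h of A-485, and 3 clones of WSU-DLCL2 labelled BCL11A knockout. The titles of the controls name no treatment, and the deposited files call them DMSO. They are called untreated here. No label says that replicates came from separate cultures, apart from the clones, so the p-values speak only of how far these libraries spread. Each clone is a line grown from its own founder, and the samples hold no unedited clone. BCL11A, a zinc-finger transcription factor of B cells, stood at 51.9 to 69.6 CPM (a gene's share of its library's counts, scaled as counts-per-million) in the clones, beside 45.7 to 73.5 CPM in untreated WSU-DLCL2. Counts over a whole gene need not fall after an edit of its reading frame, so these values do not check the labels. Untreated WSU-DLCL2 replicate 3 has labels that disagree. Its title names no treatment and its source name makes it a control, but its treatment entry says A-485. It also stood apart in its counts, with a chi-square per gene of 201 and 212 against replicates 1 and 2, which differed from each other by 2.66. Clone results are therefore given with and without it.

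The libraries were of 2 kinds. The 9 shallow ones, all of Karpas-422 and the A-485 libraries of WSU-DLCL2, held 6689320 to 8897051 counts, and the 6 deep ones, untreated WSU-DLCL2 and the clones, 21233752 to 37286727. Of the shallow libraries' reads 43.0% to 55.5% lacked a unique alignment, and of the deep ones' 7.73% to 9.24%. GRB2, an adaptor that most cells express, was all but missing from the shallow libraries (0.233 to 1.16 CPM) and plain in the deep ones (183 to 196 CPM). A CPM in a shallow library was therefore not read as an expression level, and no test was made across the kinds. Within WSU-DLCL2 the kind of library and A-485 cannot be told apart. Of the 7 B cell markers none was at 0 in any library. In Karpas-422, chains of the T cell receptor complex stood at 489 to 617 CPM (CD3G), 36.8 to 64.4 CPM (CD3D) and 3.33 to 25.7 CPM (CD247). There CD2 was at 0 in all libraries and CD3E reached at most 0.256 CPM.

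In B cells, antigen binding lets Src family kinases such as LYN and BLK phosphorylate the CD79A and CD79B tails of the receptor, where SYK docks and becomes active. SYK phosphorylates the adaptor BLNK, which brings BTK to phospholipase C gamma, encoded by PLCG2. Its products release calcium and activate protein kinase C beta, encoded by PRKCB, which leads to NF-kB. PIK3CD encodes the delta catalytic subunit of phosphoinositide 3-kinase, which recruits BTK to the membrane, and PTPN6 encodes SHP-1, a phosphatase that dampens the receptor signal. Several of these proteins are drug targets in B cell lymphoma.

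Promoter windows are shown for the members that moved in opposite directions with A-485 in Karpas-422 and shared a motif. The windows hold the 250 bases before the outermost RefSeq start (RefSeq, GRCh38.p14), printed 5′ to 3′ on the gene's own strand. That start need not be the one used in these cells, which was not examined. Capitals mark AGGAAGT or its reverse complement ACTTCCT, a sequence of the kind that ETS family factors bind. The motif was chosen after several were scanned in these windows. It occurred on either strand in 7.01% of 35116 windows of the same length and in 3 of the 7 members scanned. LYN and BLK were not scanned. The BTK window lies at chrX:101390797-101391046 (minus strand), with matches that begin 171 and 29 bases before the start. That of BLNK lies at chr10:96271570-96271819 (minus strand), with a match 204 bases before the start. That of PTPN6 lies at chr12:6946327-6946576 (plus strand), with a match 239 bases before it.
BTK: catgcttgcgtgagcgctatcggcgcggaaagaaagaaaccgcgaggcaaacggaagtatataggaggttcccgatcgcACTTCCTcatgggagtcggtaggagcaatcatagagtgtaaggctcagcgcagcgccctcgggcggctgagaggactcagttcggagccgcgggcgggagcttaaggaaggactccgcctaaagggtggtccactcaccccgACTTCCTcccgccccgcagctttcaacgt
BLNK: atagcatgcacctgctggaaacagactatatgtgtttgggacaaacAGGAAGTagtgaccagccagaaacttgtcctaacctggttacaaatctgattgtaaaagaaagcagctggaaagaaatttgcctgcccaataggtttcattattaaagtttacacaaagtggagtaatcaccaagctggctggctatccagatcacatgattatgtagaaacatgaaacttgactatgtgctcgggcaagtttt
PTPN6: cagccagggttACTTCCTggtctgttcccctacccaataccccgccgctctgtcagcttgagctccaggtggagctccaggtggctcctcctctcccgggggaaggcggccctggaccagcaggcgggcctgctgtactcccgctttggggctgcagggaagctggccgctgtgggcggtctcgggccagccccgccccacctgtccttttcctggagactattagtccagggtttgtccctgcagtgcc
BTK was lower and BLNK and PTPN6 were higher with A-485, so the genes that hold these letters did not move together. A match is a description of the letters and not of a bound site. The windows of SYK, PLCG2, PIK3CD and PRKCB do not hold them.

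Within the shallow Karpas-422 libraries PLCG2 had the highest value per length of the members, an order that describes these libraries and was not read as one of expression levels. On the scale of CPM per kilobase of exon (RPKM), untreated Karpas-422 had PLCG2 at 129 ± 4.42 (mean ± SD, n = 3 here and below), BTK at 33.1 ± 1.71 and BLK at 20.2 ± 1.18. SYK (6.57 ± 0.736) and LYN (5.93 ± 0.340) came next and overlapped, and BLNK followed at 1.23 ± 0.453. PTPN6, PIK3CD and PRKCB were lowest, between 0.297 and 0.555 on average, and each neighbour in that order overlapped. The low end rested on few reads, 10 to 18 counts per library for PIK3CD and 14 to 30 for PTPN6, and intervals on such values would cover counting error only, since reads and not molecules were counted.

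Untreated WSU-DLCL2 had no such leader. BTK (49.0 ± 7.64 RPKM), PLCG2 (45.1 ± 3.51), LYN (40.7 ± 4.89), SYK (39.4 ± 14.8) and BLK (37.7 ± 10.1) lay close together. PTPN6 (22.4 ± 10.7), PIK3CD (16.0 ± 6.25) and BLNK (13.4 ± 7.13) followed, and every neighbour in this order overlapped over the 3 libraries. Much of this came from replicate 3, with the highest BTK (57.8 RPKM) and SYK (56.5) and the lowest PLCG2 (41.0) and LYN (35.0). In replicates 1 and 2 alone PLCG2 lay narrowly above BTK, BTK narrowly above LYN, and SYK well below LYN. PRKCB stood apart at the bottom at 1.21 ± 1.28. In the clones SYK came first at 50.3 ± 0.753 RPKM, apart from BTK at 48.0 ± 0.650, and PRKCB came last at 0.299 ± 0.199. The difference in order between the lines was not tested, as the lines' untreated libraries were of different kinds.

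**Figure D1:**
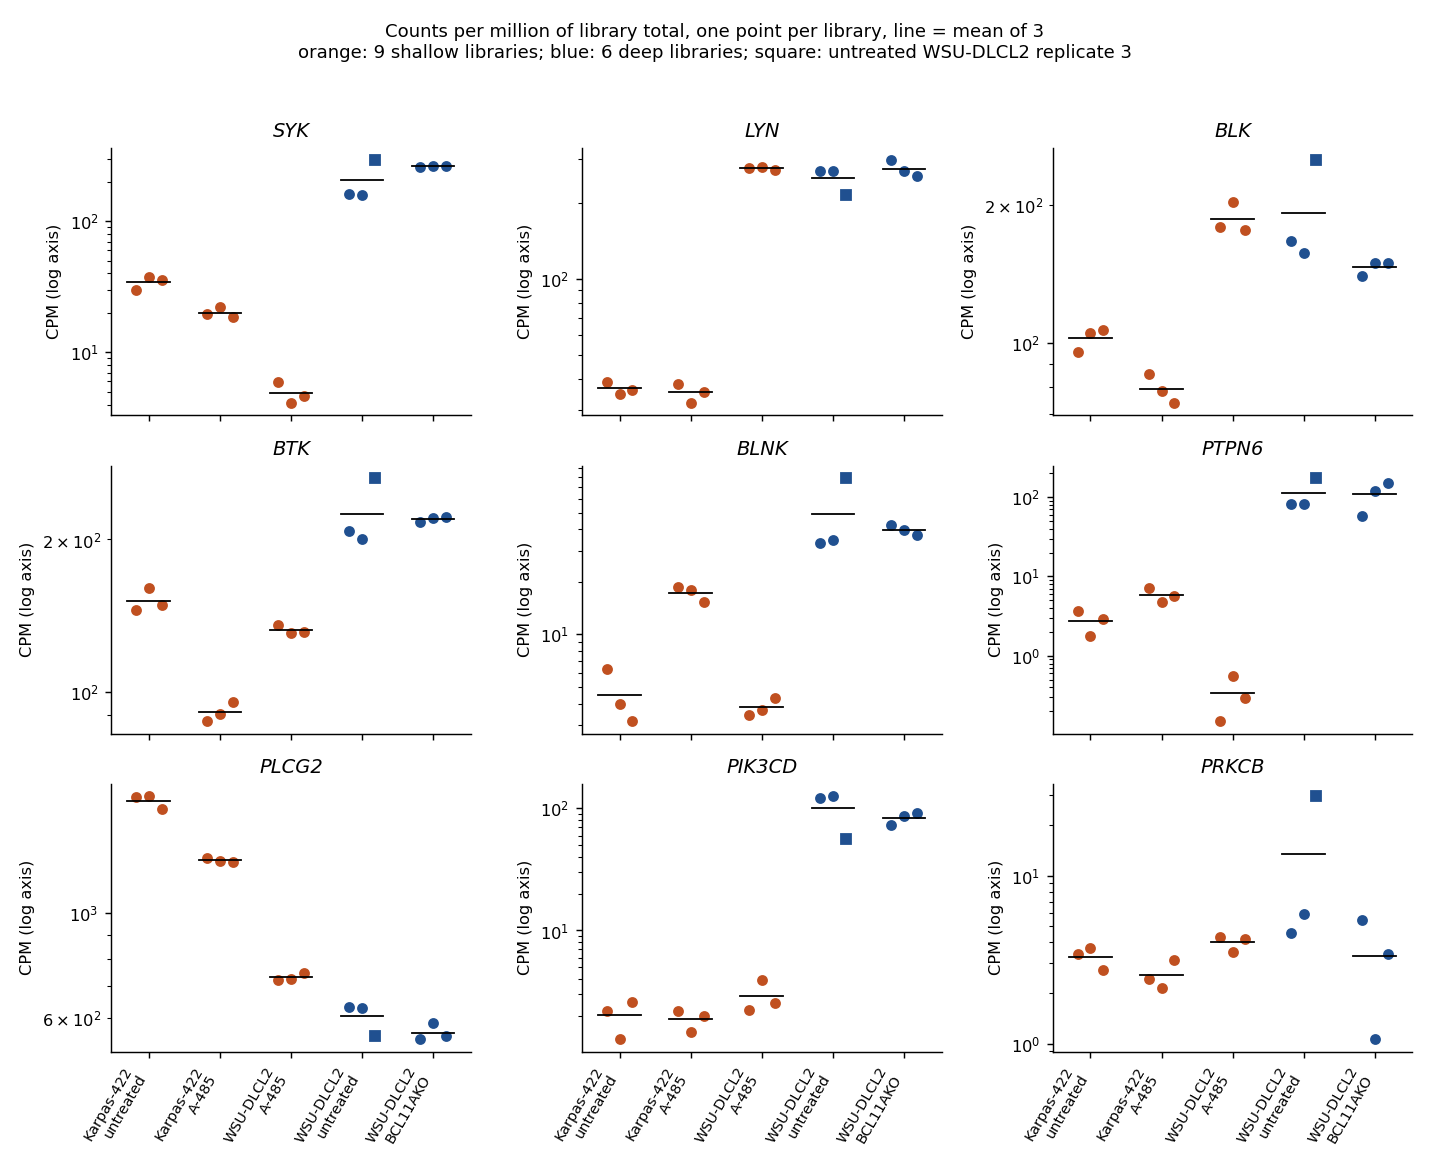
CPM of each of the 9 genes in all 15 libraries (log axes), with 1 point per library and a line at the group mean; orange points are shallow and blue points deep libraries, and the square is untreated WSU-DLCL2 replicate 3. The square lies away from replicates 1 and 2 for all 9 genes, and PLCG2 in Karpas-422 stands between 1281 and 1768.

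The plot of CPM by library shows untreated WSU-DLCL2 replicate 3 above replicates 1 and 2 for SYK, BLK, BTK, BLNK, PTPN6 and PRKCB, and below them for LYN, PLCG2 and PIK3CD. For PRKCB it held 29.8 CPM against 4.55 and 5.87. For BLNK it held 79.1 CPM against 33.3 and 34.6.

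With A-485 in Karpas-422, the kinases SYK, BTK and BLK and the phospholipase PLCG2 were lower and the adaptor BLNK was higher whether or not the libraries were rescaled, while the calls of LYN and PRKCB depended on the scaling. Among the 9 members 6 fell (SYK, BTK, PLCG2, BLK, PRKCB and LYN), 2 rose (BLNK and PTPN6) and PIK3CD was not called, by the quasi-likelihood test of edgeR, Benjamini-Hochberg adjusted over 11846 genes, where an adjusted p under 0.05 is a call. Changes were widespread: 71.4% of all genes tested were called, 37.6% higher and 33.7% lower, 73.6% were under an unadjusted p of 0.05, and DESeq2 called 62.3% of them. The members' called share, 8 of 9, is thus close to that background, and their median log2 fold change of -0.76 stands beside 0.08 over all genes. The 2 groups did not overlap for 8 of 9 members and for 74.7% of all genes. These values use TMM scaling, which aligns the libraries on the genes that differ least between them. With library sizes alone the median over all genes shifts by 0.40, the split of all calls moves from 4459 higher and 3998 lower to 6454 and 2292, and LYN and PRKCB lose their calls, which leaves 4 members lower. Measures of the reads moved with A-485 as well. Reads outside any annotated gene were 3.61% to 4.54% untreated and 8.25% to 8.91% with A-485, reads without a unique alignment 54.5% to 55.5% and 48.8% to 49.0%, and genes with a count 17041 to 18121 and 19553 to 19787. Their part in the changes was not tested.

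The Src family kinases start the cascade. LYN, which also starts inhibitory signals, stood at 42.9, 41.2 and 42.5 TMM-scaled CPM in the untreated libraries and at 33.2, 27.9 and 31.0 with A-485. The A-485 libraries were all lower, by -0.46 ± 0.09 (log2 fold change ± SE, edgeR adjusted p = 0.000529). This call rests on the scaling: with library sizes alone LYN was at 39.0, 34.8 and 36.3 CPM against 38.4, 32.0 and 35.6, the groups overlapped, and the difference was -0.06 (adjusted p = 0.631). BLK, a Src family kinase largely restricted to B cells, stood at 105, 124 and 125 TMM-scaled CPM untreated and at 73.8, 68.5 and 64.1 with A-485. Every treated library was lower, and BLK fell by 0.78 ± 0.08 on the log2 scale (edgeR adjusted p = 9.57e-07).

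SYK, the kinase that docks on the phosphorylated receptor, had the lowest fold change of the members. It stood at 32.9, 44.1 and 41.7 TMM-scaled CPM untreated and at 17.1, 19.2 and 16.1 with A-485. The groups were well apart, and SYK fell 2.26-fold (log2 -1.17 ± 0.13, edgeR adjusted p = 1.46e-06). BTK, the Tec family kinase that activates phospholipase C gamma, stood at 160, 189 and 174 untreated and at 75.8, 79.1 and 82.9 with A-485. No treated library came near an untreated one, and BTK fell 2.20-fold (log2 -1.14 ± 0.07, edgeR adjusted p = 4.06e-09).

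BLNK, the adaptor that links SYK to BTK and PLCG2, stood at 6.99, 4.69 and 3.71 TMM-scaled CPM in untreated Karpas-422. With A-485 it stood at 16.1, 15.7 and 13.4. All treated libraries were higher, and BLNK rose 2.87-fold (log2 1.52 ± 0.19, edgeR adjusted p = 8.70e-06). Its partner PLCG2, the member with the highest CPM in these libraries, stood at 1932, 2091 and 1946 untreated and at 1132, 1125 and 1113 with A-485. The treated libraries lay close together below all controls, and PLCG2 fell by 0.82 ± 0.05 on the log2 scale (edgeR adjusted p = 3.74e-09).

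PRKCB, PIK3CD and PTPN6 rested on few reads in Karpas-422. PRKCB, protein kinase C beta, stood at 3.76, 4.39 and 3.21 TMM-scaled CPM untreated and at 2.11, 1.86 and 2.73 with A-485, from 19 to 29 counts per library. The groups did not overlap, and it fell by 0.76 ± 0.25 on the log2 scale (edgeR adjusted p = 0.0128). Without untreated replicate 2 the adjusted p was 0.0572, without A-485 replicate 2 it was 0.0584, and with library sizes alone it was 0.203. PTPN6, the SHP-1 phosphatase, stood at 4.03, 2.12 and 3.38 untreated and at 6.22, 4.12 and 4.96 with A-485. The lowest treated library lay just above the highest control, and PTPN6 rose by 0.66 ± 0.26 on the log2 scale (edgeR adjusted p = 0.0323). That call was lost without untreated replicate 2 (adjusted p = 0.163) or 3 (0.0519) and without A-485 replicate 1 (0.131) or 3 (0.0647). DESeq2 called neither PRKCB (adjusted p = 0.0624) nor PTPN6 (0.119), and neither did edgeR in the fit of all 5 groups (0.415 and 0.234). PIK3CD, the PI3K delta catalytic subunit, overlapped between groups, at 2.42, 1.51 and 3.04 untreated and 1.89, 1.27 and 1.72 with A-485 (log2 -0.51 ± 0.31, edgeR adjusted p = 0.159).

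**Figure D2:**
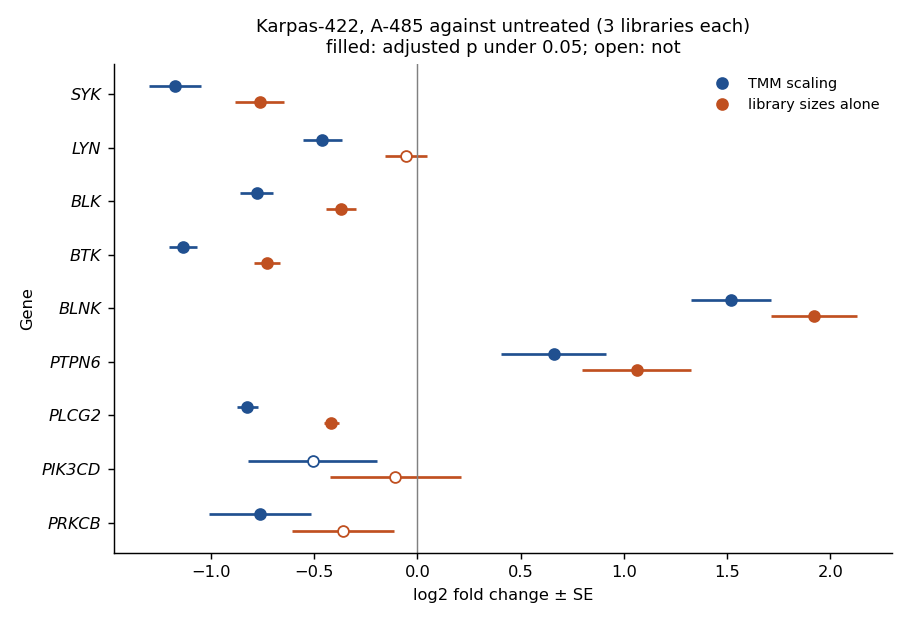
Log2 fold change ± SE of each member with A-485 against untreated Karpas-422 (3 libraries each), under TMM scaling (blue) and library sizes alone (orange); filled points have an adjusted p under 0.05. SYK, BLK, BTK and PLCG2 are lower and BLNK and PTPN6 higher under both scalings, while LYN moves from -0.46 to -0.06.

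As the plot of fold changes under both scalings shows, the direction of SYK, BTK, BLK, PLCG2, BLNK and PTPN6 and their calls did not depend on this choice. With library sizes alone SYK was at -0.77, BTK at -0.73, PLCG2 at -0.42 and BLK at -0.37. BLNK was then at 1.92 and PTPN6 at 1.06. With TMM scaling 4 of the 7 B cell markers fell and 0 rose, led by CD74, the invariant chain of antigen presentation, from 1278 ± 77.5 to 133 ± 7.97 TMM-scaled CPM. The groups did not overlap on that scale for 3 of the 7. MS4A1, another of the 4, overlapped with scaling and without it (4.32 to 7.04 and 4.75 to 6.17 CPM unscaled). Without scaling PAX5 was higher in every treated library (1640 to 1946 CPM untreated, 2077 to 2312 with A-485). POU2AF1 was then at 7405 to 7744 and 7292 to 7367 CPM. The summed CPM of the list was 10750 to 11440 untreated and 10170 to 10540 with A-485. Markers of other cell types moved in the same libraries. The summed CPM of 7 T and NK cell markers, mostly CD3G, went from 637 to 682 untreated to 549 to 588 with A-485. Of the 3 of them tested, 2 fell, and CD247 rose from 5.74 ± 2.61 to 19.9 ± 2.05 TMM-scaled CPM. The summed CPM of 7 myeloid markers went from 32.2 to 39.9 up to 43.5 to 48.9 without scaling. Most of it was SPI1, at 30.2 to 35.7 CPM untreated and 36.4 to 40.4 CPM with A-485. With TMM scaling the 2 tested went opposite ways. CD33 was called higher (3.04 ± 1.53 to 6.15 ± 0.768 TMM-scaled CPM), and SPI1 was lower in every treated library but not called. MPO and ITGAM were at 0 in all 6 libraries. The summed CPM of 6 epithelial and fibroblast markers, all of it DCN, went from 381 to 428 down to 177 to 193, with 5 of the 6 at 0 in each of these libraries. Their part in the members' changes was not tested. In bulk RNA, fewer cells of a type and less RNA per cell cannot be told apart.

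The members' partners in the pathway, 91 genes in lists by role, moved both ways: 19 rose and 25 fell among those tested in Karpas-422, and 33 rose and 12 fell with library sizes alone. Of all 11846 genes tested 71.4% were called, 37.6% higher and 33.7% lower. With library sizes alone 6454 of all genes were higher and 2292 lower. The partner counts are given beside that background. Some partners named below rested on few reads. Untreated libraries held 4 to 7 counts of PIK3R1, 6 to 13 of PLCG1, 8 to 10 of BANK1 and 7 to 13 of INPPL1. A-485 libraries held 4 to 13 counts of CD22 and 8 to 13 of SRC. Of 3 receptor and co-receptor genes tested, 0 rose and 1 fell, with a median log2 fold change of -0.15 (0.25 with library sizes alone). The receptor's own signalling chains were not called, CD79A at -0.15 ± 0.09 (edgeR adjusted p = 0.135) and CD79B at -0.04 ± 0.23 (0.891). Across the 14 alternatives listed below CD79A ran from -0.27 to 0.25, and not all left it uncalled. CD79B ran from -0.25 to 0.37, and none called it. CD81, a tetraspanin of the co-receptor, fell from 9.67 ± 1.41 to 4.09 ± 0.880 TMM-scaled CPM. The list of inhibitory receptors also took in Fc receptor-like (FCRL) genes, not all of them inhibitory. Among its 6 genes tested 1 rose and 3 fell (median 0.02, or 0.42 with library sizes alone). CD22, which brings SHP-1 to the receptor, fell by 2.91 ± 0.30 on the log2 scale, and SIGLEC10 fell by 0.65 ± 0.14. The riser was FCRL1, an activating member of the FCRL family, at 2.49 ± 0.09. The call of SIGLEC10 was lost with library sizes alone (-0.25, edgeR adjusted p = 0.137) and in the fit of all 5 groups (0.354).

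Relatives of LYN, BTK and SYK were mostly too low to test: 3 of 9 other Src, Tec and Syk family kinases passed the filter. FYN rose from 9.45 ± 1.47 to 43.0 ± 0.618 TMM-scaled CPM. CSK, which inhibits Src family kinases, fell by 1.51 ± 0.21 on the log2 scale, and SRC fell by 1.59 ± 0.31. ZAP70, the SYK relative of T cells, was at 0 in all 6 Karpas-422 libraries, where 3 counts would have been 0.337 to 0.432 CPM. Of 11 other adaptors and exchange factors tested, 5 rose and 3 fell (median 0.18, or 0.59 with library sizes alone). Like BLNK, BANK1 (log2 3.02 ± 0.21), HCLS1 (2.25 ± 0.14) and DAPP1 (1.81 ± 0.08) of this list rose. Of 8 other phosphatases 4 rose and 3 fell (median 0.36, or 0.76 with library sizes alone), with CD45, encoded by PTPRC, up 1.40 ± 0.14, the lipid phosphatase INPPL1 up 2.29 ± 0.23 and PTPRJ down at -0.65 ± 0.10. With library sizes alone PTPRJ was at -0.24 (edgeR adjusted p = 0.0251), and the fit of all 5 groups did not call it (0.207).

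Downstream, 4 of 7 other PI3K and AKT genes rose and 1 fell (median 0.58, or 0.98 with library sizes alone). PIK3R1, the regulatory subunit that binds the delta catalytic subunit, rose by 2.22 ± 0.31 on the log2 scale, PIK3CA rose by 0.38 ± 0.05 (0.79 with library sizes alone), and PIK3CG fell by 1.44 ± 0.20. Of 10 phospholipase C, protein kinase C and calcium genes 3 rose and 6 fell (median -0.47), but with library sizes alone 3 rose and 2 fell (median -0.06). PLCG1, the paralog of PLCG2, rose from 1.37 ± 0.368 to 5.43 ± 0.142 TMM-scaled CPM. PRKCD, the delta relative of PRKCB, fell by 1.82 ± 0.14, PRKCE fell by 0.42 ± 0.05 and the calcineurin subunit PPP3R1 fell by 0.67 ± 0.05. With library sizes alone PPP3R1 was at -0.27, and PRKCE was at -0.01 and not called (edgeR adjusted p = 0.796), nor was it in the fit of all 5 groups (0.467). Of 4 genes of the NF-kB branch 1 rose and 1 fell (median 0.02), while 4 rose and 0 fell with library sizes alone (median 0.43). BCL10 was at -0.22 ± 0.06 and turned positive with library sizes alone (0.19), and MALT1 was not called (0.11 ± 0.06, edgeR adjusted p = 0.109). MAP3K7, the kinase TAK1, rose by 2.91 ± 0.16. Of 7 Ras branch genes 0 rose and 5 fell (median -0.23), against 3 and 2 with library sizes alone (median 0.18). RASGRP1, the exchange factor that protein kinase C and diacylglycerol activate, fell by 1.20 ± 0.05, and MAP2K1 fell by 0.57 ± 0.06. With library sizes alone RASGRP1 was at -0.80 and MAP2K1 at -0.16. NRAS was at -0.26 ± 0.05 and turned positive with library sizes alone (0.15). In the fit of all 5 groups edgeR did not call BCL10 (adjusted p = 0.108), MAP2K1 (0.0536) or NRAS (0.111).

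**Figure D3:**
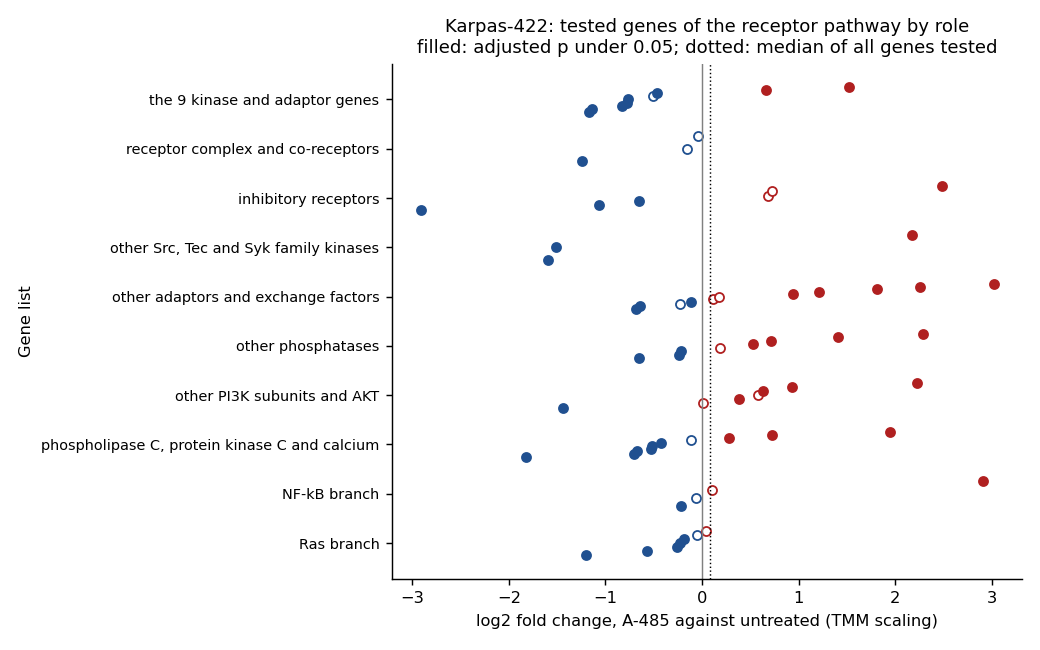
Log2 fold changes (A-485 against untreated Karpas-422, TMM scaling) of all tested genes of the 9 members and of the 9 role lists, with 1 point per gene, filled where the adjusted p is under 0.05; the dotted line is the median of all genes tested, 0.08. Of the members, 6 filled points lie left of 0 and 2 right of it.

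The plot of fold changes by role places the members beside their partners. Every role list has at least 1 called gene more than 1 log2 unit from 0, as have the members with SYK, BTK and BLNK.

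In the clones labelled BCL11A knockout no member passed the test against all 3 untreated WSU-DLCL2 libraries. EdgeR called 0 of the 9 members and 0% of 16152 genes, and 0 members were under an unadjusted p of 0.05, as were 6.92% of all genes. DESeq2 and limma-voom also called 0 members, while DESeq2 called 1.95% of all genes. The groups did not overlap for 1 of 9 members, BLK, and for 16.5% of all genes. With untreated replicate 3 left out, SYK alone of the 9 was called, higher in the clones, beside 2.11% of 16607 genes called in all, 0.422% higher and 1.69% lower. DESeq2 then called 6.96% of all genes, and PIK3CD and PLCG2 among the members as lower. Without that library 4 members were under an unadjusted p of 0.05, against 19% of all genes, and 6 did not overlap between groups, against 40.3%.

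SYK stood at 257, 258 and 269 TMM-scaled CPM in clones 1, 2 and 3 and at 162 and 161 in untreated replicates 1 and 2. The clones were all higher, and SYK rose 1.62-fold over those replicates (log2 0.70 ± 0.06, edgeR adjusted p = 0.00938). Untreated replicate 3, scaled with all 6 libraries, stood at 289 CPM, above every clone (258, 259 and 270). With it the difference was 0.36 ± 0.24 (adjusted p = 0.849). The call without it also needed both remaining controls: with only replicate 2 or only replicate 1 as control, its spread taken to be that of the clones, the adjusted p was 0.223 and 0.228, at fold changes of 0.68 and 0.69.

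PIK3CD stood at 73.3, 84.9 and 93.6 TMM-scaled CPM in the clones and at 122 and 127 in untreated replicates 1 and 2. The clones were all lower than these, at -0.57 ± 0.11 (edgeR adjusted p = 0.0643), which missed the threshold. Without clone 1 the adjusted p was 0.0437, without clone 2 it was 0.0461, and DESeq2 gave 0.000374. Replicate 3, at 54.9 CPM when all 6 libraries were scaled together, lay below every clone, and with it the difference was -0.28 ± 0.32 (adjusted p = 0.892).

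PLCG2 stood at 540, 571 and 559 TMM-scaled CPM in the clones and at 632 and 635 in untreated replicates 1 and 2. The clones were lower than both, at -0.19 ± 0.06 (edgeR adjusted p = 0.192), and DESeq2 called this difference (0.0270), as did edgeR without clone 2 (0.0320). With replicate 3 included (541 CPM, within the range of the clones), the difference was -0.12 ± 0.11 (adjusted p = 0.878). BLK stood at 140, 146 and 152 in the clones against 166 and 158 (-0.16 ± 0.07, adjusted p = 0.289). Replicate 3 had 246, so BLK was lower in all clones than in all 3 controls, at -0.38 ± 0.19, with an adjusted p of 0.775.

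BTK and BLNK lay between untreated replicates 1 and 2 on the low side and replicate 3 on the high side. BTK stood at 216, 215 and 226 TMM-scaled CPM in the clones and at 207 and 202 in replicates 1 and 2 (0.10 ± 0.06, edgeR adjusted p = 0.449), and replicate 3 had 260. BLNK stood at 42.1, 38.8 and 37.9 against 33.2 and 34.9 (0.22 ± 0.09, adjusted p = 0.254), and replicate 3 had 77.7. With all 3 controls BTK differed by -0.03 ± 0.13 (adjusted p = 0.976) and BLNK by -0.29 ± 0.34 (0.892), so for both the sign turned on that library.

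LYN, PTPN6 and PRKCB overlapped between groups either way. LYN stood at 298, 262 and 261 TMM-scaled CPM in the clones against 269 and 271 in replicates 1 and 2, a difference of 0.02 ± 0.08 (edgeR adjusted p = 0.916), or 0.12 ± 0.14 (0.888) with replicate 3. PTPN6 varied most among the clones of the members with more than 10 CPM, at 58.5, 118 and 155 against 81.0 and 82.1. Clone 1 lay below the controls and clones 2 and 3 above, and the difference was 0.44 ± 0.40 (adjusted p = 0.609), or -0.01 ± 0.43 (0.997) with replicate 3 at 172 CPM. PRKCB stood at 5.46, 1.04 and 3.50 in the clones against 4.54 and 5.92 (-0.66 ± 0.63, adjusted p = 0.618). Replicate 3 held 29.2, and with it the difference was -1.99 ± 0.89 (adjusted p = 0.750).

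**Figure D4:**
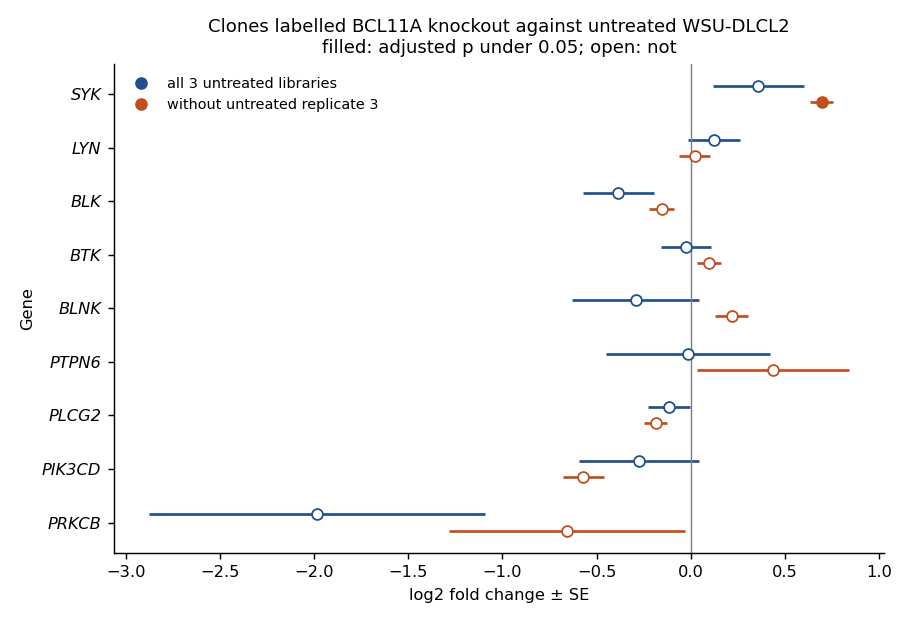
Log2 fold change ± SE of each member in the 3 clones labelled BCL11A knockout against untreated WSU-DLCL2, with all 3 untreated libraries (blue) and without untreated replicate 3 (orange); filled points have an adjusted p under 0.05. SYK without replicate 3, at 0.70 ± 0.06, is the 1 filled point.

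The plot of clone fold changes shows how much replicate 3 set the errors: the SE of SYK went from 0.24 to 0.06 and that of BLNK from 0.34 to 0.09 when it was left out. The members' median log2 fold change was -0.12 with it and 0.02 without it, beside -0.01 and 0.02 over all genes tested.

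Of the pathway partners, edgeR called 0 in the clones against all 3 controls (0 of 9 lists had a called gene), and without replicate 3 it called 1 higher and 4 lower. The lower ones lay mostly among the relatives of LYN, BTK and SYK, where 3 of 8 tested were called (median log2 fold change -0.96, beside 0.02 over all genes tested). SRC fell from 19.6 ± 1.28 (n = 2) to 2.62 ± 0.819 TMM-scaled CPM (log2 -2.90 ± 0.25, edgeR adjusted p = 0.00849). TEC, a relative of BTK, fell from 107 ± 2.33 (n = 2) to 58.1 ± 6.78 (log2 -0.88 ± 0.10, adjusted p = 0.0186). FYN fell by 2.18 ± 0.29 (adjusted p = 0.0258). Against all 3 controls SRC (-2.58 ± 0.44, adjusted p = 0.206) and FYN (-2.00 ± 0.35, 0.210) were also lower in every clone, without passing the test. TEC was not: replicate 3 stood at 21.5 TMM-scaled CPM, below every clone (54.2, 66.1 and 54.4), and the difference was -0.43 ± 0.55 (adjusted p = 0.895). The calls without replicate 3 also needed both remaining controls. With either one alone as control, edgeR gave adjusted p of 0.1125 and 0.130 for SRC, 0.243 and 0.242 for TEC and 0.252 and 0.286 for FYN. Without clone 3, TEC (0.0691) and FYN (0.100) were not called either.

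CD81 fell by 0.48 ± 0.06 (edgeR adjusted p = 0.0202) and FCRL2 rose by 1.40 ± 0.22 (0.0384) in the clones against untreated replicates 1 and 2. Replicate 3 had 182 TMM-scaled CPM of CD81, below every clone (251, 260 and 257), and 19.4 of FCRL2, within the clones' range (14.1, 21.2 and 18.4). With it CD81 was at -0.22 ± 0.26 (adjusted p = 0.892) and FCRL2 at 0.71 ± 0.46 (0.843). Without replicate 3, both calls were lost with either remaining control alone (adjusted p of 0.317 and 0.354 for CD81, 0.268 and 0.408 for FCRL2) and without clone 3 (0.0691 and 0.122). That of FCRL2 was also lost with at least 1 CPM in 3 libraries (0.0630). None of the genes tested among the other adaptors (16), phosphatases (9), PI3K and AKT (8), phospholipase C, protein kinase C and calcium (16), NF-kB branch (4) and Ras branch (9) lists was called in that comparison. Of them 3, 1, 3, 4, 0 and 5 were under an unadjusted p of 0.05 in edgeR, beside 19% of all genes tested. The receptor chains and the PLCG2 paralog, CD79A (-0.15 ± 0.08, adjusted p = 0.378), CD79B (0.25 ± 0.12, 0.316) and PLCG1 (0.05 ± 0.40, 0.957) were not called. ZAP70 had at most 2 counts in any of these libraries.

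In WSU-DLCL2 with A-485 the members were measured in shallow libraries alone, so their CPM are a description. SYK was at 5.98, 4.09 and 4.62 CPM, BTK at 135, 131 and 132, and LYN at 278, 278 and 271. BLK was at 178, 202 and 176 CPM, PLCG2 at 721, 726 and 747, and BLNK at 3.44, 3.67 and 4.32. PIK3CD stood at 2.24, 3.95 and 2.53 CPM, PRKCB at 4.34, 3.53 and 4.17, and PTPN6 at 0.150, 0.565 and 0.298 CPM, from 1, 4 and 2 counts. PIK3CD was at or below 3.95 CPM in all 9 shallow libraries of both lines and at 55.9 to 126 CPM in all 6 deep ones. SYK, BTK, BLNK and PTPN6 were likewise lower in every shallow library than in any deep one, and PLCG2 was higher.

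Per length, the A-485 libraries of WSU-DLCL2 had PLCG2 at 54.5 ± 1.02 RPKM, LYN at 44.6 ± 0.597, BLK at 36.6 ± 2.87 and BTK at 28.98 ± 0.551, each apart from the next. BLNK (1.04 ± 0.125) and SYK (0.940 ± 0.187) overlapped, as did PIK3CD (0.459 ± 0.144) and PRKCB (0.362 ± 0.0385), and PTPN6 was lowest at 0.0673 ± 0.0420. PLCG2 was thus first in all 3 groups of shallow libraries. With A-485 in Karpas-422 the order was PLCG2 (96.4 ± 1.05), BTK (19.95 ± 0.861), BLK (15.6 ± 1.14), LYN (5.71 ± 0.514), BLNK (4.74 ± 0.470) and SYK (3.86 ± 0.342), the last of which overlapped BLNK. PTPN6 (1.17 ± 0.248) came next, and PIK3CD (0.296 ± 0.0587) and PRKCB (0.232 ± 0.0467) overlapped at the bottom. BLNK thus went from below SYK in untreated Karpas-422 to an RPKM that overlapped it.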

How the data were processed

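Total RNA was sequenced by the authors, who deposited raw read counts per Ensembl gene for 15 libraries. GRCh37 (hg19) was the build and the tools were STAR 2.5.3a and RSEM, per the submitters' processing notes. Not given in the sources used here are the counting program, annotation, strand and library kit. Without strand, a gene's reads cannot be told from those of an overlapping or antisense gene. Of 17 sample records, 3 are runs of untreated WSU-DLCL2 replicate 3, which share 1 count file. The 5 summary lines of each file (60.9% to 70.2% of reads in the shallow libraries, 27.3% to 29.7% in the deep ones) stayed out of library sizes.

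Identifiers were matched to symbols in a name table and then in GENCODE 29 (GRCh38), whose union exonic lengths gave RPKM. EdgeR 4.0.16 (R 4.3.3; TMM, filterByExpr, robust quasi-likelihood fits, two-sided, threshold 0.05) was fitted to all genes of the groups compared, with p adjusted over all genes kept (Benjamini-Hochberg), and was tested on simulated data. Of simulated 2-fold changes it called 88% in Karpas-422, 24% in the clones against all controls and 46% without untreated replicate 3. Of 1.5-fold changes it called 40%, 0% and 16%, so changes of this size in the clones could be missed. Standard errors are the log2 fold change over the square root of F. DESeq2 1.42.0, limma-voom 3.58.1, other scalings and filters, a fit of all 5 groups, a replicate block and leaving out each library were alternatives. The members, lists and named-gene rule (the 9 members, CD79A, CD79B, ZAP70 and PLCG1, and up to 3 genes with the smallest p of each list) were chosen with earlier results of these data known. Some genes of the lists are not reported here and were left out of all list counts after the results were seen. ORAI1 was not matched, so 17 of the 18 genes of its list were used. Marker lists held 7 B cell, 7 T and NK cell, 7 myeloid and 6 epithelial and fibroblast genes; the summed myeloid markers were 16.5 to 79.4 CPM over all libraries, mostly SPI1.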

Additional observations from a re-analysis of the deposited data

Results flagged for a closer look

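For 3 members every A-485 library lay on the other side of the untreated libraries in Karpas-422 than in WSU-DLCL2. The log2 ratio of mean CPM with A-485 over untreated was 1.95 for BLNK in Karpas-422 and -3.69 in WSU-DLCL2. It was 1.08 for PTPN6 in Karpas-422 and -8.38 in WSU-DLCL2, the latter from 7 counts in the treated libraries. It was -0.42 for PLCG2 in Karpas-422 and 0.27 in WSU-DLCL2. The difference between the lines was not tested. In WSU-DLCL2 the treated libraries were shallow and the untreated ones deep, and the kind of library cannot be told apart from A-485.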

How the results depend on the processing

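In Karpas-422 the calls of SYK, BTK, BLK, PLCG2 and BLNK held under all 14 alternatives, LYN under all but library sizes alone. Members called higher were 1 with DESeq2 and 1 in the fit of all 5 groups, and the log2 fold changes of NRAS (0.148) and BCL10 (0.186) reversed with library sizes alone. Pathway genes called were then 33 higher and 12 lower. Leaving out each library gave 1 to 2 members higher and 5 to 6 lower, and 18 to 23 pathway genes higher and 24 to 25 lower. For the clones against all controls, pathway genes called were 1 higher and 4 lower with DESeq2, and 1 higher and 3 lower in the fit of all 5 groups. With no filter, DESeq2 and the fit of all 5 groups, all genes called higher and lower were 1 and 19, 60 and 255, and 64 and 242, against 0 and 0 (limma-voom 0 and 2). Leaving out each library gave 0 to 1 members and 0 to 1 pathway genes higher, and 0 to 0 members and 0 to 4 pathway genes lower; each upper value above 0 is without untreated replicate 3. Without that replicate, members called lower were 1 with no filter, 2 with DESeq2 and 1 in the fit of all 5 groups. Pathway genes called higher and lower were 4 and 9 with no filter, 6 and 12 with DESeq2, 5 and 10 in the fit of all 5 groups, and 0 higher with at least 1 CPM in 3 libraries. All genes called higher and lower, 70 and 281, became 222 and 613 with no filter, 36 and 103 with the 1 CPM minimum, 406 and 750 with DESeq2, 318 and 770 in the fit of all 5 groups, 0 and 1 without untreated replicate 1 or 2, 239 and 586 without clone 1, 1462 and 1558 without clone 2, and 15 and 77 without clone 3. Leaving out each library gave 0 to 1 members higher and 0 to 2 lower, and 0 to 10 pathway genes higher and 0 to 16 lower. Mean CPM in WSU-DLCL2 with A-485 moved to 268 for LYN, 129 for BTK and 712 for PLCG2 with TMM within the shallow libraries. The cause was not tested in these cases, apart from the smaller number of libraries. The depth of Karpas-422 limits PIK3CD, PRKCB and PTPN6, at 10 to 56 counts per library, and partners such as PIK3R1, PLCG1, BANK1, INPPL1, SRC and CD22.

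With the replicate block the clones without untreated replicate 3 had 0 members higher (SYK, adjusted p = 0.0627), 0 pathway genes higher and 1 lower, and 16 and 73 genes in all. The deviations of same-numbered libraries correlated with r of 0.02, 0.07 and -0.05 in Karpas-422, of 0.10, 0.04 and 0.24 in the clones and all controls, and of -0.04 and -0.12 without untreated replicate 3. Not every pair deviated together, and not every library correlated best with its own number, so they share only a number. The block changed no other call of a member.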
